A study of Mus musculus with 11 samples.

Results

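Mouse Leydig tumor cells (MLTCs, line MLTC-1) were transfected with siRNA1 against *Mamld1* or with non-targeting RNA (4611G), and the genes that differed between them were followed. The comparison rests on 8 of the 11 single-color arrays, chosen by their sample titles, with 4 arrays of siRNA1 and 4 of non-targeting RNA (control). The other 3 arrays carry RNA of MLTCs transfected with siRNA2, another duplex against *Mamld1*, and their values are given for comparison. All groups received 20 nM of RNA with the same lipid reagent, and total RNA was taken after 48 hours. The methods of the study add hCG for the last hour, which the labels do not name. MLTCs are 1 tumor line, and the labels do not say whether the arrays of a group came from separate cultures, so the p-values measure the spread between these arrays.

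Leydig cells make testosterone from cholesterol under the control of luteinizing hormone, whose receptor also binds hCG. Cholesterol enters the mitochondria with the help of Star and is converted by Cyp11a1, Hsd3b1, and Cyp17a1, and MAMLD1 is a nuclear protein whose gene is mutated in some boys with hypospadias. A siRNA guides the RNA-induced silencing complex to transcripts that match it, and these are cleaved. The sequences of siRNA1, siRNA2, and 4611G are not printed here.

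The unscaled 75th percentile of the signal was 600.7 to 773.8 on the siRNA1 arrays and 469.7 to 581.7 on the control arrays, so all siRNA1 arrays were brighter before scaling. Between 58.6% and 62.6% of the spots of an array were well above background, and 0 were saturated. All 7 Leydig markers were measured above background. Of 51 markers of macrophages and of Sertoli, germ, endothelial, and peritubular cells, 22 passed the filter on dim probes. Of these 22, 2 (*Cdh5* and *Esam*) were higher with siRNA1 and 4 (*Trem2*, *Rhox5*, *Ddx4*, and *Des*) lower by the adjusted p alone. Over all 11816 genes tested, 10.6% were higher and 18.7% lower by the same limit, so the marker counts lay near these shares. The part of these markers in the results was not tested. The arrays lay on 3 slides, each with all 3 groups but in uneven numbers. Slide 1 held control arrays 1 and 2 and siRNA1 array 1. Slide 2 held control array 3 and siRNA1 arrays 2 and 3, and slide 3 held array 4 of both. With group means removed, arrays of different groups correlated at a median of 0.30 on the same slide and -0.12 on different slides. The main fit holds no slide term, and a fit with the slide as a block is given beside it.

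Levels are log2 signals minus the 75th percentile of the array, and percentages are relative to the geometric mean of the 4 control arrays. *Mamld1* stood at 88, 85.2, 119, and 112% on the control arrays and at 46.6, 77, 48.1, and 44.1% on the siRNA1 arrays. Every siRNA1 array lay below every control array, with siRNA1 array 2 nearest to them. The log2 difference was -0.93 ± 0.20 (SE, adjusted p = 0.00571) with siRNA1 and -0.77 with siRNA2. It was -1.11 without siRNA1 array 2, -0.37 with the local background subtracted, and 0.65 (adjusted p = 0.492) after normexp background correction. The normexp fit was uneven between arrays, and both of these corrections add 50 to every signal, as described below. *Cyp17a1*, which makes 17-hydroxylated steroids, fell to 52.8% ± 3.09 (SD, n = 4; adjusted p = 0.000216) and with siRNA2 to 72.2% ± 7.77 (n = 3; direct adjusted p = 0.0255).

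With siRNA1, 288 of 24248 tested probes (1.19%) were at least 2-fold higher and 438 (1.81%) at least 2-fold lower than with non-targeting RNA at an adjusted p of 0.05 or less. They named 130 genes that were higher and 290 that were lower. Called decreases were more often named than called increases, since 332 of the 438 lower probes (75.8%) but 160 of the 288 higher probes (55.6%) had 1 gene symbol, against 70.1% of all tested probes. All 4 siRNA1 arrays lay beyond all 4 control arrays for 286 of the higher and 431 of the lower probes. Over all 24248 tested probes this held for 3091 upward and 3975 downward. The calls rest on the same arrays, so the separation is no separate test of them. With the slide as a block, 288 and 444 probes were called, and they include 261 and 407 of the same probes. With siRNA2, 0.742% of the probes were higher and 1.51% lower than the same control arrays.

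Calls were rarest among bright probes. Of the brightest of 4 equal groups of probes, 0.495% were higher and 0.775% lower, compared with 2.18% and 3.22% of the dimmest. Of the called probes, 61 higher and 97 lower ones lay at or above the 75th percentile of the array. No control array was well above background for 34 of the higher probes, and no siRNA1 array for 28 of the lower ones, so their fold is not given. These counts depended on the background correction and on a constant added with it. Normexp correction left 41 higher and 152 lower probes, and subtraction of the local background left 83 and 127. Both add 50 to every signal before the logarithm, which narrows the folds of dim probes. The main values hold no such constant, and the correction and the constant were not tested apart. Normexp fitted a background mean of -663 to -475 on siRNA1 arrays 2 and 4 and siRNA2 array 2. On the other arrays it was -28.3 to 2.94. The log2 spread after it was 0.631 to 0.917 on the former and 2.72 to 3.78 on the latter. Normexp values given for genes and lists therefore compare arrays of unlike spread.

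**Figure D1:**
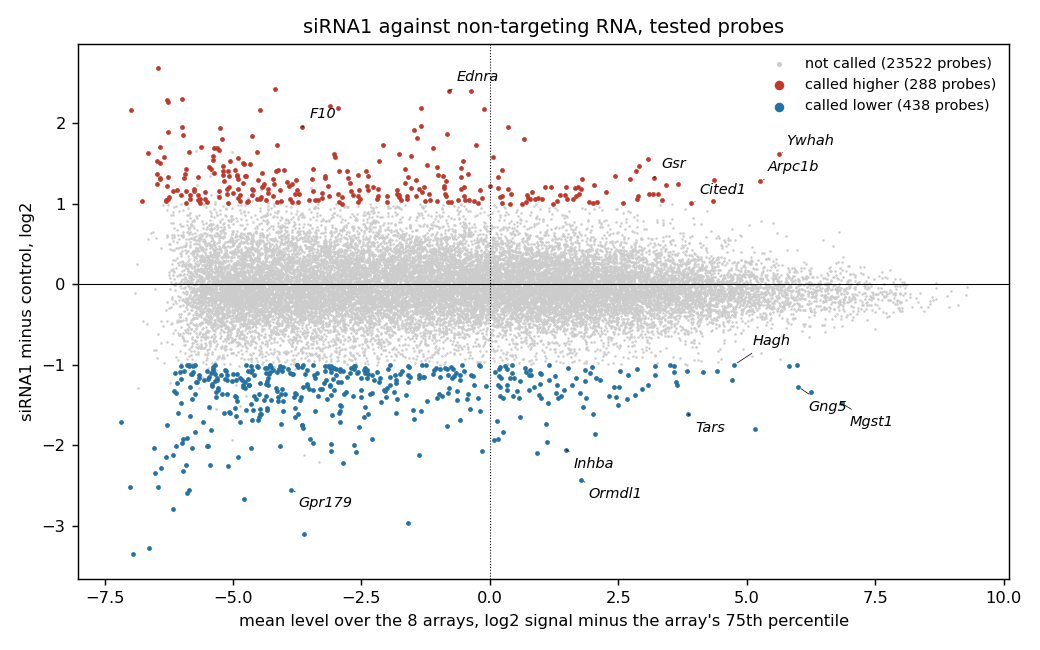
Difference between siRNA1 and control (y axis, log2) against the mean level over the 8 arrays (x axis, log2 signal minus the 75th percentile) for the 24248 tested probes, 1 point a probe. The 288 probes called higher and the 438 called lower are colored and lie mostly left of the dotted line, which marks the 75th percentile. A few, such as *Mgst1*, *Gng5*, *Ywhah*, and *Arpc1b*, lie far to the right of it.

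The 12 brightest genes that rose with siRNA1 encode chromatin and transcription factors (*Ss18*, *Nelfb*, *Cited1*, *Cited4*), translation factors (*Eif4a2*, *Eif4e2*), an actin nucleator (*Arpc1b*), a 14-3-3 adaptor (*Ywhah*), glutathione reductase (*Gsr*), a chemokine (*Cxcl12*), the stress gene *Ndrg1*, and the phosphatase 1 partner *Ppp1r21*. Their increases ran from 1.0 to 1.61 on the log2 scale. Within the 3 slides the increase ran from 0.885 to 1.85. Its sign could not differ, since only genes with all siRNA1 arrays beyond all control arrays were eligible. All 12 passed the adjusted p with the slide as a block, and 10 of them the fold. Under normexp correction the 12 increases shrank to 0.665 to 1.26, and only *Ywhah* and *Cxcl12* still passed.

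*Ywhah*, whose product binds phosphorylated proteins, was at 103, 112, 84.9, and 102% on the control arrays and at 294, 298, 314, and 319.6% on the siRNA1 arrays. On the siRNA2 arrays it was at 288, 301, and 304%. Both siRNA groups lay well clear of the control arrays and overlapped each other. The log2 difference was 1.61 ± 0.091 with siRNA1 (adjusted p = 1.18e-06) and 1.57 with siRNA2, and the direct difference between the siRNAs, which uses the same siRNA1 arrays, was 0.04 ± 0.098 (adjusted p = 0.809). Of the 7 measured 14-3-3 genes, it was the 1 that passed with siRNA1.

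*Arpc1b* (a subunit of the Arp2/3 complex, which branches actin filaments), *Nelfb* (a subunit of the negative elongation factor, which holds RNA polymerase II near the start of genes), *Eif4e2* (a cap-binding protein that represses translation), and *Ppp1r21* were likewise higher with both siRNAs. *Nelfb* was at 192, 208, 204, and 219.5% with siRNA1 and 196, 204, and 231% with siRNA2, against 98.4, 110.3, 90.7, and 102% on the control arrays. The log2 differences with siRNA1 and siRNA2 were 1.28 and 1.60 for *Arpc1b*, 1.11 and 1.19 for *Eif4e2*, and 1.41 and 1.74 for *Ppp1r21*. The direct difference missed the adjusted p in all of these (lowest 0.0909), which does not show that the siRNAs acted alike. *Eif4e2* has 4 tested probes, of which the 2 brightest rose by 1.11 and 1.22, the dimmest by 0.35, and the other stood at 0.18 and did not pass.

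*Gsr*, *Ndrg1*, *Eif4a2*, and *Cited1* rose with siRNA1 and stood near the control level with siRNA2. Glutathione reductase returns oxidized glutathione to its reduced form, and *Gsr* was at 268, 219, 269, and 249% with siRNA1 against 107, 110.3, 95.3, and 88.7% on the control arrays and 109, 94, and 92.3% with siRNA2. The siRNA1 arrays stood apart from both other groups, which overlapped. It rose by 1.32 ± 0.10 on the log2 scale (adjusted p = 9.49e-06), its other probes gave 1.09 and 1.35, and siRNA1 exceeded siRNA2 by 1.35 ± 0.11 (adjusted p = 1.39e-05).

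*Ndrg1*, a gene induced by hypoxia and other stresses, was at 222, 192, 205, and 205% with siRNA1 and at 102, 78, and 90.1% with siRNA2. *Eif4a2*, an RNA helicase of translation initiation, was at 255, 198, 264, and 232% and 136, 96.9, and 96.3%. For *Cited1*, a partner of the coactivators CBP and p300, these values were 172, 227, 181, and 230.5% and 83.2, 95.1, and 108%. All siRNA1 arrays exceeded all siRNA2 arrays in the 3 genes, and the direct difference passed with adjusted p = 6.74e-05, 0.000541, and 0.000269. *Cited1* lay just over the 2-fold limit (1.0 ± 0.13) and fell below it with the slide as a block (0.96).

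*Ss18*, a subunit of the BAF chromatin remodeling complex, rose by 1.30 with siRNA1 and by 0.91 with siRNA2, and the siRNAs differed (adjusted p = 0.00785). *Cited4* rose by 1.06 and 0.75. The 2 probes of *Cxcl12*, the ligand of the receptor Cxcr4, disagreed. The brighter one gave -0.10 with siRNA1 (adjusted p = 0.527) and 0.46 with siRNA2, whereas the called one gave 1.56 and 0.91.

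**Figure D2:**
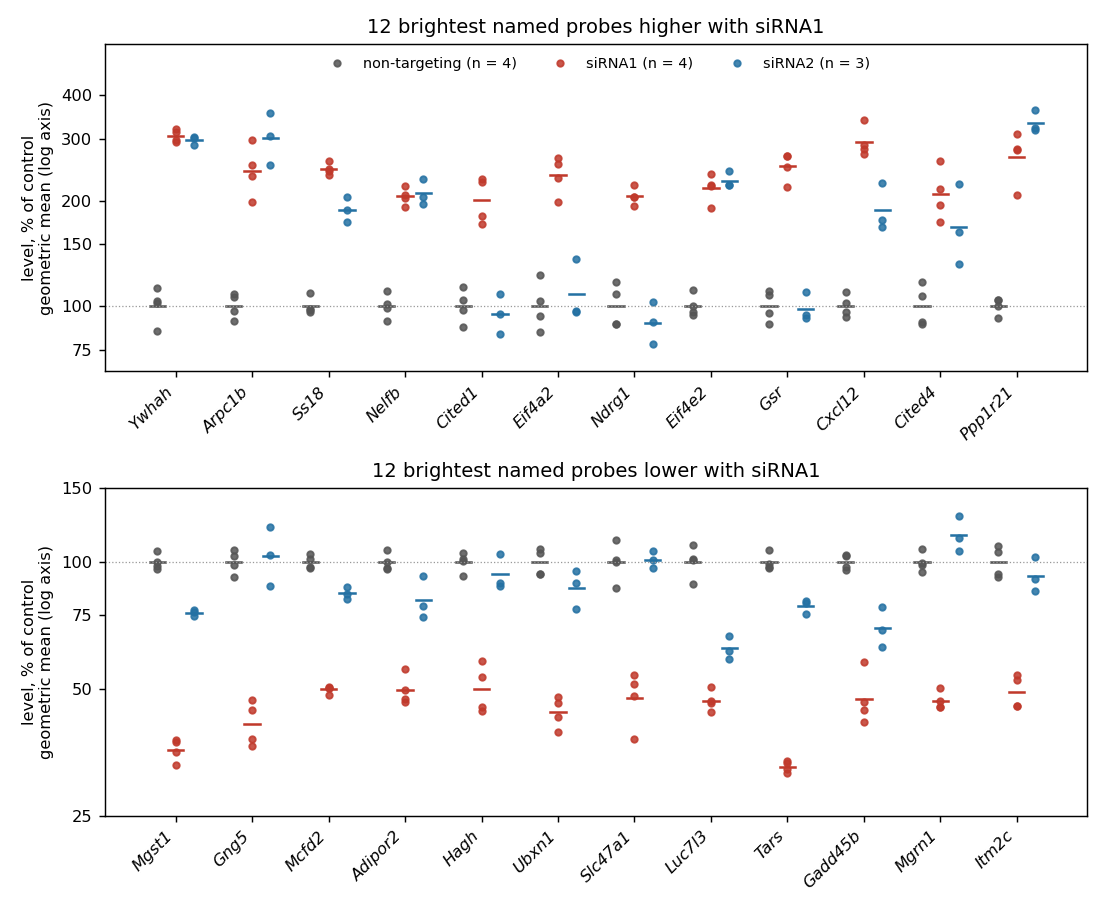
Level of the 12 brightest genes called higher (upper panel) and lower (lower panel) with siRNA1 on every array, as % of the control geometric mean on a log axis. Points are arrays, short lines geometric means, and the dotted line is 100%. The siRNA1 arrays lie beyond the control arrays for every gene, as the selection required. The siRNA2 arrays lie near the siRNA1 arrays for genes such as *Ywhah* and *Nelfb* and near the control arrays for *Gsr*, *Gng5*, and *Slc47a1*.

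The 12 brightest genes that fell with siRNA1 differed from siRNA2 in 12 of 12 cases by the direct test. So did 194 of the 234 lower genes from which they were picked. The direct test reuses the siRNA1 arrays that selected the genes, which favors a difference. They include 2 enzymes of glutathione chemistry (*Mgst1*, *Hagh*), genes of protein quality control (*Ubxn1*, *Mgrn1*), of RNA splicing (*Luc7l3*) and tRNA charging (*Tars*), a cargo receptor partner (*Mcfd2*), a drug exporter (*Slc47a1*), and signaling genes (*Gng5*, *Adipor2*, *Gadd45b*). The decreases ran from -1.0 to -1.61, and within the 3 slides they measured 0.746 to 1.69. Here too the selection by separated groups fixed the sign within slides. The adjusted p held for all 12 under every alternative setting that was run, but the 2-fold limit held for 7 under quantile scaling and for 8 under median scaling. Under normexp correction the 12 decreases grew to 1.26 to 1.92 in size, whereas the 12 bright increases shrank. Normexp thus moved both sets downward, and it does not show that the decreases are firmer than the increases. With siRNA2, 5 of the 12 passed the adjusted p and 0 the fold.

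*Mgst1*, a microsomal glutathione S-transferase, was at 100.2, 97.8, 96.1, and 106% on the control arrays, at 37.4, 37.9, 35.4, and 33% with siRNA1, and at 76.2, 74.5, and 76.8% with siRNA2. The 3 groups did not overlap, with siRNA2 between the others. The log2 difference was -1.48 ± 0.074 with siRNA1 (adjusted p = 4.54e-07) and -0.40 with siRNA2 (adjusted p = 0.00502), and its other probe gave -1.34 with siRNA1. *Hagh*, the second enzyme of methylglyoxal detoxification, was at 44.3, 53.4, 45.3, and 58.1% with siRNA1 and at 87.7, 89.3, and 104% with siRNA2.

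*Tars*, which loads threonine onto its tRNA, was at 33.3, 33.7, 32.3, and 31.5% with siRNA1 against 97.4, 107, 96.8, and 99.1% on the control arrays, with 81, 79.8, and 75.2% for siRNA2. Its log2 change came to -1.61 ± 0.07 (adjusted p = 2.08e-07), and the other probe gave -1.41.

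*Gng5*, a gamma subunit of heterotrimeric G proteins, was at 38.1, 44.5, 36.7, and 47.1% with siRNA1 and at 87.8, 104, and 121% with siRNA2. *Slc47a1*, which exports organic cations, was at 54, 38.1, 48.1, and 51.4% and 96.9, 106, and 101%, and the ubiquitin ligase *Mgrn1* was at 45.2, 46.8, 45.3, and 50.2% and 106, 114, and 129%. The siRNA2 arrays of these 3 genes overlapped the control arrays. The siRNA1 minus siRNA2 differences were -1.32 ± 0.13, -1.09 ± 0.13, and -1.31 ± 0.09 (adjusted p = 3.61e-05, 0.000135, and 3.84e-06). Direct differences of at least 2-fold occurred among 1.91% (higher with siRNA1) and 1.45% (lower) of all tested probes.

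The remaining bright decreases lay between 1.0 and 1.18 on the log2 scale. *Ubxn1*, a cofactor of the segregase p97, fell by 1.18 with siRNA1 and was at -0.20 with siRNA2. For the splicing factor *Luc7l3* the values were -1.09 and -0.68, and for the stress gene *Gadd45b* -1.08 and -0.52, so both siRNAs lowered these (siRNA2 adjusted p = 0.000533 and 0.0114). *Mcfd2*, *Adipor2* (an adiponectin receptor), and the membrane protein *Itm2c* stood at -1.0, -1.01, and -1.02 with siRNA1, and at -0.24, -0.29, and -0.11 with siRNA2.

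Among genes measured above background on all 8 arrays, each read from its brightest called probe, the largest increases were those of *Ednra* (the endothelin A receptor, 2.40 ± 0.083), *Copg1* (2.18 ± 0.091), *Exoc4* (a subunit of the exocyst, which tethers vesicles, 1.95 ± 0.075), *F10* (coagulation factor X, 1.95 ± 0.25), and *Asph* (an aspartyl hydroxylase of the endoplasmic reticulum, 1.86 ± 0.14). With siRNA2 they stood at 1.31, 0.68, 2.47, -0.42, and 2.23. *F10* was at 334, 400.2, 374, and 448% with siRNA1 and 131, 57.7, and 55.6% with siRNA2, so the siRNAs did not overlap (direct adjusted p = 0.000116). The *F10* increase did not pass under normexp correction (1.30, adjusted p = 0.241) and was 0.77 with the local background subtracted. For *Copg1*, a subunit of the COPI coat, 2 brighter probes gave -0.044 and -0.046 with siRNA1, so the increase belongs to 1 of 3 probes. The other probes of *Asph* gave 0.83 and 0.95.

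Under the same limits, the largest decreases were those of *Gpr179* (-2.55 ± 0.17), *Ormdl1* (-2.44 ± 0.098), *Drc1* (-2.22 ± 0.096), *Aqp5* (-2.09 ± 0.19), and *Ptprb* (-2.08 ± 0.20). *Ormdl1*, a brake on the first enzyme of sphingolipid synthesis, was at 20.4, 16.7, 18.1, and 18.9% with siRNA1 and at 137, 123.2, and 126% with siRNA2, compared with 116, 93.4, 91.7, and 101% on the control arrays. Its siRNA1 arrays were low, and its siRNA2 arrays all lay above every control array. The direct difference was -2.80 ± 0.11 (adjusted p = 8.82e-08). *Gpr179*, *Drc1* (of the ciliary nexin-dynein complex), *Aqp5* (a water channel), and *Ptprb* (a receptor tyrosine phosphatase) stood at -0.42, -0.53, -0.79, and -0.91 with siRNA2, and all differed directly from siRNA1. Under normexp correction these 4 dim genes no longer passed, at -0.095 to -0.39, and *Ormdl1* did.

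**Figure D3:**
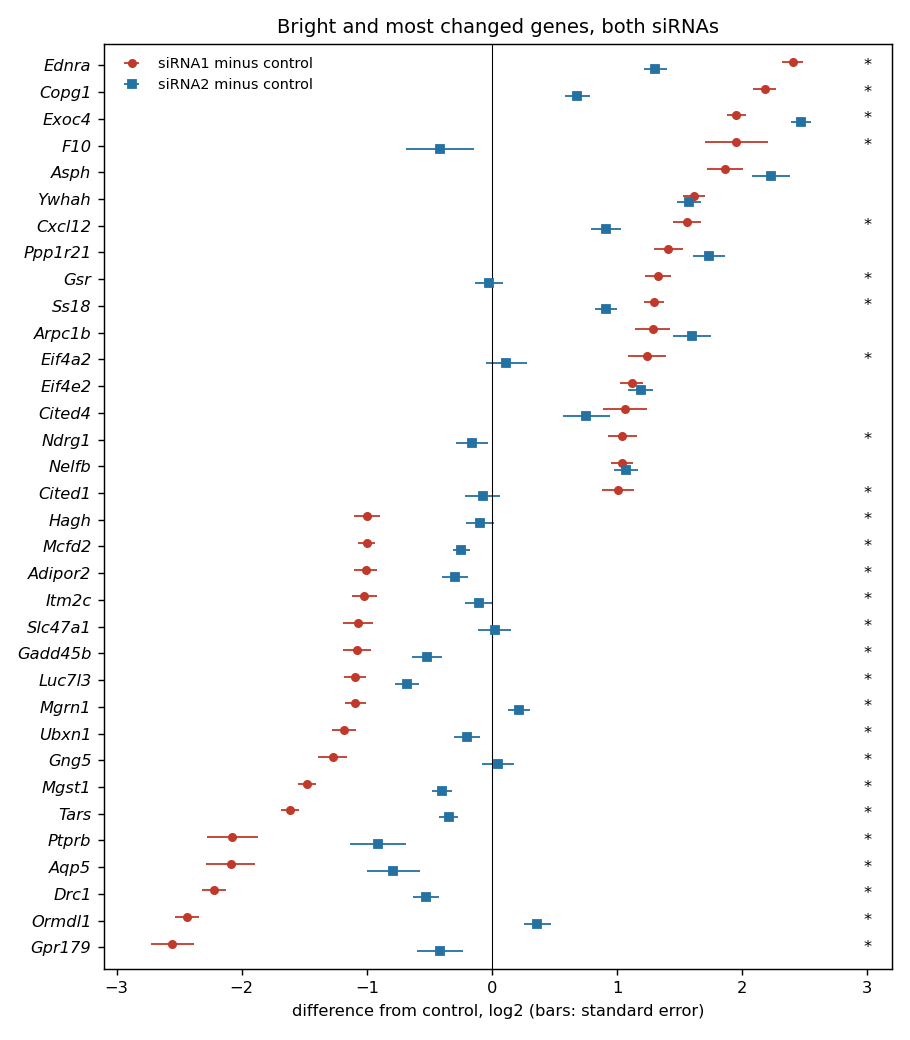
Log2 difference from the shared control arrays with siRNA1 (circles) and siRNA2 (squares) for the 24 bright genes and the 10 largest changes, with standard errors. An asterisk marks a direct siRNA1 minus siRNA2 difference with an adjusted p of 0.05 or less. The decreases all carry an asterisk, whereas 6 of the 12 bright increases do. Of all candidate genes, as defined in the processing section, 194 of 234 lower and 60 of 104 higher ones had such a difference.

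A further 5 probes were called in opposite directions by the siRNAs, and they were picked after their values were seen. *Cyp2f2*, a cytochrome P450 that oxidizes foreign aromatic compounds, was at 310.2, 328, 329, and 322% with siRNA1 and at 29.1, 28.7, and 27.8% with siRNA2. *Deptor*, an inhibitor of the kinase mTOR, was at 224, 241, 221, and 231% and 33.2, 39.7, and 36.9%. Each siRNA group lay wholly on its own side of the control arrays. The log2 differences were 1.69 and -1.81 for *Cyp2f2* and 1.20 and -1.45 for *Deptor*. The others were *Tril*, *Dipk1a* (1 of its 2 probes), and a probe with no gene symbol. All 5 were higher with siRNA1 and lower with siRNA2, which share the control arrays. *Tril* was dim, with 3 of 4 control arrays and 0 of 3 siRNA2 arrays well above background.

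Gene lists are described below by the number of members that passed the adjusted p alone, with 1 probe per gene, beside the same share over all 11816 genes tested, which was 10.6% higher and 18.7% lower. The median log2 difference over all genes was -0.083 with siRNA1 and -0.022 with siRNA2. Members named without a 2-fold change were picked as examples after their values were seen. Normexp correction left 5 of the cholesterol genes and at most 3 genes of any other list past the threshold in 1 direction, and 15 of the 42 members called at 2-fold. With the slide as a block, 1650 genes were higher and 2913 lower in place of 1255 and 2210, and most list counts were equal or larger.

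In cholesterol synthesis and uptake, 15 of 32 tested members were lower with siRNA1 (46.9%) and 1 was higher (*Abca1*, which exports cholesterol, 0.48, siRNA2 -0.27), with a list median of -0.34, and -0.29 with siRNA2. None of the 15 decreases reached 2-fold. The count of 15 became 10 under quantile and 11 under median scaling, and 12 to 16 with 1 array left out. The decreases touched early and late enzymes of the pathway, among them *Acat2* (which joins acetyl units), the mevalonate enzymes *Mvk*, *Pmvk*, and *Mvd*, *Fdps* and *Fdft1* (which build farnesyl and squalene chains), *Lss* (which closes the sterol rings), and the later sterol enzymes *Cyp51*, *Tm7sf2*, *Msmo1*, *Hsd17b7*, and *Ebp*. *Hmgcs1*, an early enzyme of the mevalonate pathway, stood at -0.0066 with siRNA1 and did not pass, and at -0.64 with siRNA2.

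*Mvk*, mevalonate kinase, was at 47.6, 53.6, 46.6, and 55.6% with siRNA1 and at 70.7, 70.9, and 81.2% with siRNA2, against 111, 79.96, 103, and 109% on the control arrays. The log2 difference was -0.98 ± 0.12 with siRNA1 (adjusted p = 0.000134), and a dimmer probe gave -0.49. *Tm7sf2*, a sterol reductase, was at 52.7, 48.1, 46.1, and 55.8% and 62, 63.4, and 77.2%. The siRNA2 arrays lay between the siRNA1 and control arrays in *Tm7sf2*. Across the list, 4 of the 16 members that passed with siRNA1 also differed directly between the siRNAs, among them *Acat2*, which fell to 57.9% ± 11.1 (SD, n = 4) with siRNA1 and stood at 132% ± 13 (n = 3) with siRNA2.

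**Figure D4:**
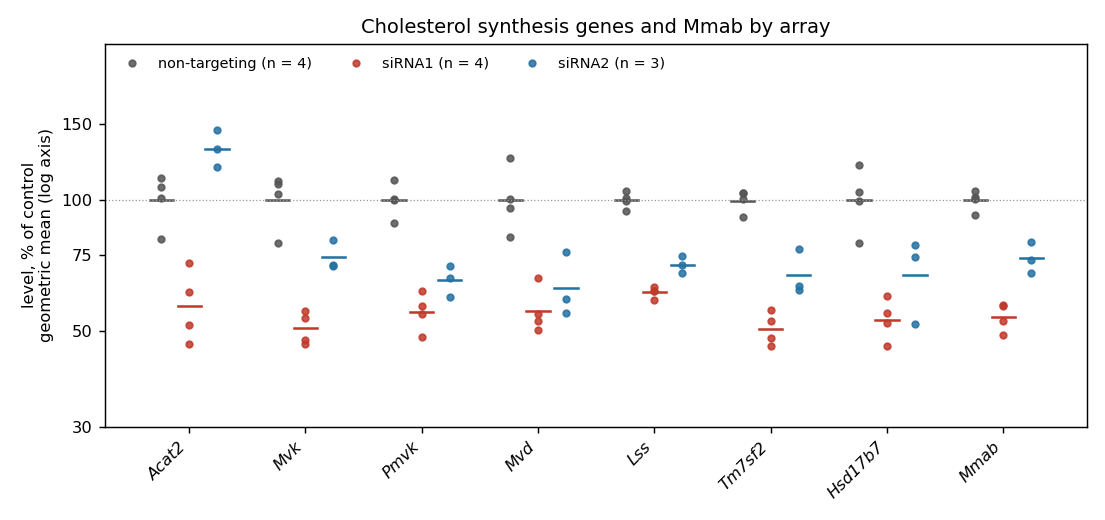
Level of 7 cholesterol synthesis genes, in pathway order, and of *Mmab* on every array, as % of the control geometric mean on a log axis. Points are arrays and short lines geometric means. The siRNA1 arrays lie below the control arrays in every gene, and the siRNA2 arrays lie below the control mean in all but *Acat2*.

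The neighbor of *Mvk* was lower as well. *Mmab*, which attaches an adenosyl group to cobalamin and was singled out after its values were seen, is transcribed from the opposite strand of chromosome 5, with 190 bases between the annotated spans of both genes (GRCm38.p6). It was at 52.5, 57.1, 49, and 57.4% with siRNA1 and 72.9, 67.8, and 80.3% with siRNA2, a log2 difference of -0.89 ± 0.087 with siRNA1, and its dimmer probe gave -1.37. The promoters of *Mvk*, *Mvd*, and *Tm7sf2* are shown because these genes fell together. They run from 250 bases before to 50 bases after the transcript start that the promoter table uses, which for *Mvk* lies a few bases inside the gene span (RefSeq, GRCm38.p6, written 5′ to 3′ along the gene), with each CCAAT box, read as CCAAT or ATTGG, in capitals.
Mvk promoter, chr5:114444019-114444318, plus strand: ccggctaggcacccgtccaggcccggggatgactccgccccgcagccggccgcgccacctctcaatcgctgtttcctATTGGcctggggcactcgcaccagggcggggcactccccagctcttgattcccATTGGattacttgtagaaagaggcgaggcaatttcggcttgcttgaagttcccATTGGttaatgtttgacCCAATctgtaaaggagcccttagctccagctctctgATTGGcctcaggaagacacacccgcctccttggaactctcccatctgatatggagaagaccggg
Mvd promoter, chr8:122443373-122443672, minus strand: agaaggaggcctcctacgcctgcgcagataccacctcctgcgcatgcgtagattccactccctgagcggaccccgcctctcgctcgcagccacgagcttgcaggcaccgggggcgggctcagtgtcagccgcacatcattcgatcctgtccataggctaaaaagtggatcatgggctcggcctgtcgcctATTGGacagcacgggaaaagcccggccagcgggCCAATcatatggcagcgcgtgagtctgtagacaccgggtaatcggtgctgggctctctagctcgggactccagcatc
Tm7sf2 promoter, chr19:6067801-6068100, minus strand: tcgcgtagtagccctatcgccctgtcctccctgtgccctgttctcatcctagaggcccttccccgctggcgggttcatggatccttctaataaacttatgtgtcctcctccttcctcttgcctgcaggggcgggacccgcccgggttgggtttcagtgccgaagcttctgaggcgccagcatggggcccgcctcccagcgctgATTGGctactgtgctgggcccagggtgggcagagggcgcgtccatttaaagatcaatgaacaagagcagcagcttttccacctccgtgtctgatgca
They hold 5, 2, and 1 CCAAT boxes. A promoter was at hand for 22 of the 32 list members, and 18 of these (81.8%) hold CCAAT on either strand. Among the 10 lower members with a promoter it is 9, so members that were not lower hold it too. Of the 27025 genes with a promoter, whether tested here or not, 41.1% do. The exact sterol response element string TCACNCCAC, searched on both strands, lies in 1 of the 22 (*Hmgcs1*) and in 1.44% of all. Variants of this string were not searched. These matches describe the letters of the window and name no bound factor.

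Of 17 tested members of the Leydig steroid synthesis list, 4 were lower (23.5%; *Cyp17a1*, *Hsd17b7*, *Stard4*, and *Fdx1*) and 1 higher (5.88%; *Cyb5b*), with a median of -0.093. The gene of the hormone receptor, *Lhcgr*, was at 76.7, 60.6, 70.9, and 53.2% with siRNA1 and 126, 112, and 98.5% with siRNA2 (log2 difference -0.63 ± 0.12 with siRNA1, adjusted p = 0.00285, and direct adjusted p = 0.00121). In the list of LH receptor, cAMP, and PKA signaling, 7 of 24 were lower (29.2%) and 6 higher (25%). The lower ones include the regulatory subunits *Prkar1b* (-1.27, siRNA2 -0.58, but siRNA1 0.29 under normexp correction) and *Prkar2b* (-0.53, siRNA2 -0.21) and the phosphodiesterase *Pde8b* (-0.75, siRNA2 0.19), and the higher ones the cyclases *Adcy9* (0.79, siRNA2 0.76) and *Adcy3* (0.54, siRNA2 0.41). Of 24 immediate early genes, 8 were lower (33.3%) and 4 higher (16.7%). The lower ones include *Egr1* (-0.72, siRNA2 -0.93), *Fosb* (-0.89, siRNA2 -0.37), and *Egr2* (-0.80, siRNA2 -0.61). Among the higher ones, *Klf6* was at 0.93 (siRNA2 0.75, and 0.22 with siRNA1 on its dimmer probe). Of the 12 that passed, 1 (*Fosb*) differed directly between the siRNAs.

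Of 32 tested enzymes of amine and amino acid metabolism, 15 were lower (46.9%) and 2 higher, with a median of -0.21 for both siRNAs. The largest decreases were those of *Inmt*, an indole N-methyltransferase (-1.42 ± 0.11, siRNA2 -1.11), *Gchfr*, the regulator of GTP cyclohydrolase (-1.17, siRNA2 -1.43), and *Ddc*, which forms dopamine and serotonin (-1.08, siRNA2 -1.12). *Inmt* was at 35.7, 43.9, 33.1, and 38.2% with siRNA1 and 39.6, 49, and 50.9% with siRNA2, and both groups lay far below the control arrays. Under normexp correction *Inmt* passed, but *Gchfr* (-0.037) and *Ddc* (-0.75) did not. Serine synthesis (*Phgdh*, *Psat1*, *Psph*) and transamination (*Got1*, *Got2*, *Gpt*, *Gpt2*) were also lower, at -0.78 to -0.22. The count of 15 fell to 9 under quantile and 8 under median scaling, to 8 without control array 3 or 4 or siRNA1 array 1 or 3, and to 9 without siRNA1 array 2.

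Of 33 proteasome genes, 12 were lower (36.4%) and 0 higher, by 0.27 to 0.50 on the log2 scale. They include the ATPase subunits *Psmc1*, *Psmc3*, *Psmc4*, and *Psmc6* and the activator subunits *Psme1* and *Psme2*. This count rested on the scaling and on single arrays, since 7 passed under quantile and 3 under median scaling, and 6 without control array 4, siRNA1 array 1, or siRNA1 array 3. Ribosomal protein genes had a median of -0.172 with 1 of 53 higher and 1 lower, and 12 lower with the slide as a block.

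In the antioxidant and glutathione list, 4 of 36 rose (11.1%) and 7 fell (19.4%). These shares lay near those over all genes tested (10.6% and 18.7%), so the members are described singly. Besides *Gsr*, those that rose were heme oxygenase *Hmox1* (0.57, siRNA2 -0.28), metallothionein *Mt1* (0.55, siRNA2 -0.033), and thioredoxin reductase *Txnrd1* (0.27, siRNA2 -0.057). The glutathione transferases *Mgst1*, *Gsta1*, *Gsta2*, *Gsta3*, and *Gsta4* fell, the latter 4 by 0.32 to 0.44, and with siRNA2 *Gsta3* and *Gsta4* stood at -2.11 and -1.84. Probes of such related transferases can share RNA. The direct difference passed for 8 of the 11. The rising members numbered 7 under quantile scaling and 2 without control array 1 or 3 or siRNA1 array 3 or 4, and the falling ones 3 under median scaling.

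Of 28 genes of RNA silencing and mRNA decay, 8 were higher (28.6%) and 2 lower, with a list median of -0.027. *Tnrc6a*, which couples Argonaute to decay, was at 364, 263, 246, and 255% with siRNA1 and 221, 201, and 168% with siRNA2. *Dcp1a*, a decapping factor, rose by 1.19 and 1.0, and its dimmer probe gave 0.21. *Dgcr8* and *Dicer1*, which process microRNAs, rose with siRNA1 by 0.67 and 0.49 and stood at 0.058 and -0.048 with siRNA2 (direct adjusted p = 0.00592 and 0.00306). The dimmer probe of *Dicer1* gave 0.20 with siRNA1 and passed neither against control (adjusted p = 0.704) nor directly (adjusted p = 0.756). The count of 8 was 5 without control array 2, siRNA1 array 1, or siRNA1 array 3.

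In the list of TGF-beta, activin, and BMP signaling, 9 of 34 fell (26.5%) and 6 rose (17.6%). *Inhba*, which encodes the beta A subunit of activin A and inhibin A, showed the largest decrease. It was at 82.9, 102, 109.8, and 107% on the control arrays, at 22.2, 27.4, 21, and 26.1% with siRNA1, and at 88.6, 109, and 113% with siRNA2. All siRNA1 arrays lay far below the others, and siRNA2 and control overlapped. Its difference from control was -2.06 ± 0.13 on the log2 scale (adjusted p = 1.84e-06), and siRNA1 differed from siRNA2 by -2.10 ± 0.14 (adjusted p = 2.98e-06). The receptor *Tgfbr2* fell by 1.69 (siRNA2 -0.72, and 0.39 with siRNA1 under normexp correction), and the target genes *Smad7* (-0.88), *Id3* (-0.67), and *Id1* (-0.55) fell too, with siRNA2 at -0.52, 0.091, and -0.04. A further target, *Id2*, rose by 0.25 (siRNA2 -0.016). The receptor gene *Bmpr2* rose by 0.69 with siRNA1 and stood at -0.43 with siRNA2. The 6 increases became 2 without control array 1 or siRNA1 array 3.

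Of 35 genes of glycolysis and hypoxia, 7 were higher (20%) and 2 lower (5.71%). *Hif1a*, the hypoxia factor, was at 169.5, 141, 177, and 130.4% with siRNA1 and 117, 108, and 95.2% with siRNA2 (direct adjusted p = 0.0184). Its targets *Egln1* and *Pfkfb3* rose by 0.45 and 0.59, with -0.36 and 1.07 for siRNA2. Another hypoxia target, *Aldoc*, fell to -0.59 (siRNA2 -0.076), as did *Pdk2* (-0.35, siRNA2 -0.44), and *Vegfa* of the growth factor list was at -0.45 (siRNA2 -0.33). The 7 became 4 without control array 4 or siRNA1 array 3. Among 32 nuclear receptors and gonadal transcription factors, 6 were higher (18.8%) and 0 lower, with 1 lower under the slide block and 2 without siRNA1 array 2. *Nr0b1* (DAX1), a repressor of steroidogenic genes, was at 197, 210.2, 205, and 190.3% with siRNA1 and 129, 129, and 100.1% with siRNA2, and the siRNAs differed (adjusted p = 0.000389). Its increase of 1.0 was 0.99 with the slide as a block and 0.39 with the local background subtracted, and it did not pass under normexp correction (adjusted p = 0.306).

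Of 37 genes of fatty acid and lipid droplet metabolism, 10 fell (27%) and 4 rose (10.8%) with siRNA1. The lipid droplet protein *Cidea* stood at -1.08 with siRNA1 (0.11 under normexp correction) and -1.73 with siRNA2, the thioesterase *Acot5* at -1.16 (-0.24 under normexp correction) and -1.62, and the triglyceride enzyme *Dgat2* at -0.78 and -1.54, and all 3 differed directly. *Plin4*, which coats lipid droplets, rose by 0.85 with siRNA1 and was at 0.079 with siRNA2. *Acsl4*, which activates arachidonic acid, was at 54.5, 44, 55.1, and 53% with siRNA1 and 76.7, 71.3, and 68.5% with siRNA2, and its dimmer probe gave -0.19.

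In basement membrane and matrix genes, 7 of 27 fell (25.9%) and 2 rose (7.41%). In integrins and adhesion genes, 7 of 25 fell (28%) and 2 rose (8%). The largest decrease, that of the laminin chain gene *Lama2* (-2.66, siRNA2 -2.30), rests on a dim probe that was well above background on 2 of 4 siRNA1 arrays. *Lamb3*, another laminin chain, stood at -1.65 (siRNA2 -0.34) and the collagen gene *Col4a5* at -1.58 (siRNA2 0.26), both with a direct difference (adjusted p = 0.000874 and 2.37e-05). Both turned to increases that did not pass under normexp correction, by 0.44 and 0.28. The 7 matrix decreases became 4 under median scaling, and 4 without control array 3 or 4 or siRNA1 array 1. *Krt8*, a keratin of simple epithelia, was at -1.10 (siRNA2 0.23), and at -0.037 under normexp correction.

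Vesicle tethering and Golgi genes split evenly, with 7 of 42 higher and 7 lower (16.7% each). The higher ones were led by *Exoc4*, *Eps15* (an endocytic adaptor, 1.80, siRNA2 1.80), and *Trappc2* (1.30, siRNA2 1.39). In the apoptosis and p53 list, 6 of 33 were higher (18.2%) and 4 lower (12.1%). The BH3-only gene *Bmf* rose by 1.04 with siRNA1 and by 1.0 with siRNA2, and its dimmer probe gave 0.024. It did not pass under normexp correction (0.91). *Ccng1*, a p53 target, was at -1.10 (siRNA2 -0.20), and its dimmer probe gave -0.22. Of 47 genes of the respiratory chain, 3 were lower (6.38%) and 0 higher, and 8 were lower with the slide as a block. The 7 vesicle decreases became 4 under quantile and 2 under median scaling, 3 without control array 4 or siRNA1 array 3, and 4 without siRNA1 array 1 or 4.

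Further lists held 2-fold changes. In endothelin and nitric oxide-cGMP signaling, 3 of 15 rose (20%) and 2 fell (13.3%). Those that rose were *Ednra*, *Nppc* (C-type natriuretic peptide, 1.21, siRNA2 1.69), and *Gucy1a1* (a subunit of soluble guanylate cyclase, 1.07, siRNA2 0.70). *Gucy1a1* was at 177, 322, 178, and 194% with siRNA1, and siRNA1 array 2 stood above the rest. In ribosome biogenesis, 2 of 30 rose (6.67%) and 1 fell (3.33%). *Polr3e*, a subunit of RNA polymerase III, was at 274, 327, 326, and 306% with siRNA1 and 282, 250.2, and 236% with siRNA2, and *Pwp2*, which acts in processing of the small subunit rRNA, rose by 1.23 and 1.33. All siRNA arrays of both genes lay above all control arrays. Under normexp correction *Polr3e* and *Ednra* passed, but *Pwp2* (0.93), *Nppc* (1.07), and *Gucy1a1* (0.77) did not. In insulin, PI3K, Akt, and mTOR signaling, 6 of 30 rose (20%) and 2 fell (6.67%), with *Pik3ca* at 0.38 (siRNA2 0.25) and *Mtor* at -0.42 (siRNA2 -0.16). In the unfolded protein response, 6 of 27 fell (22.2%) and 1 rose (3.7%), with *Sdf2l1* at -1.05 (siRNA2 -0.62).

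**Figure D5:**
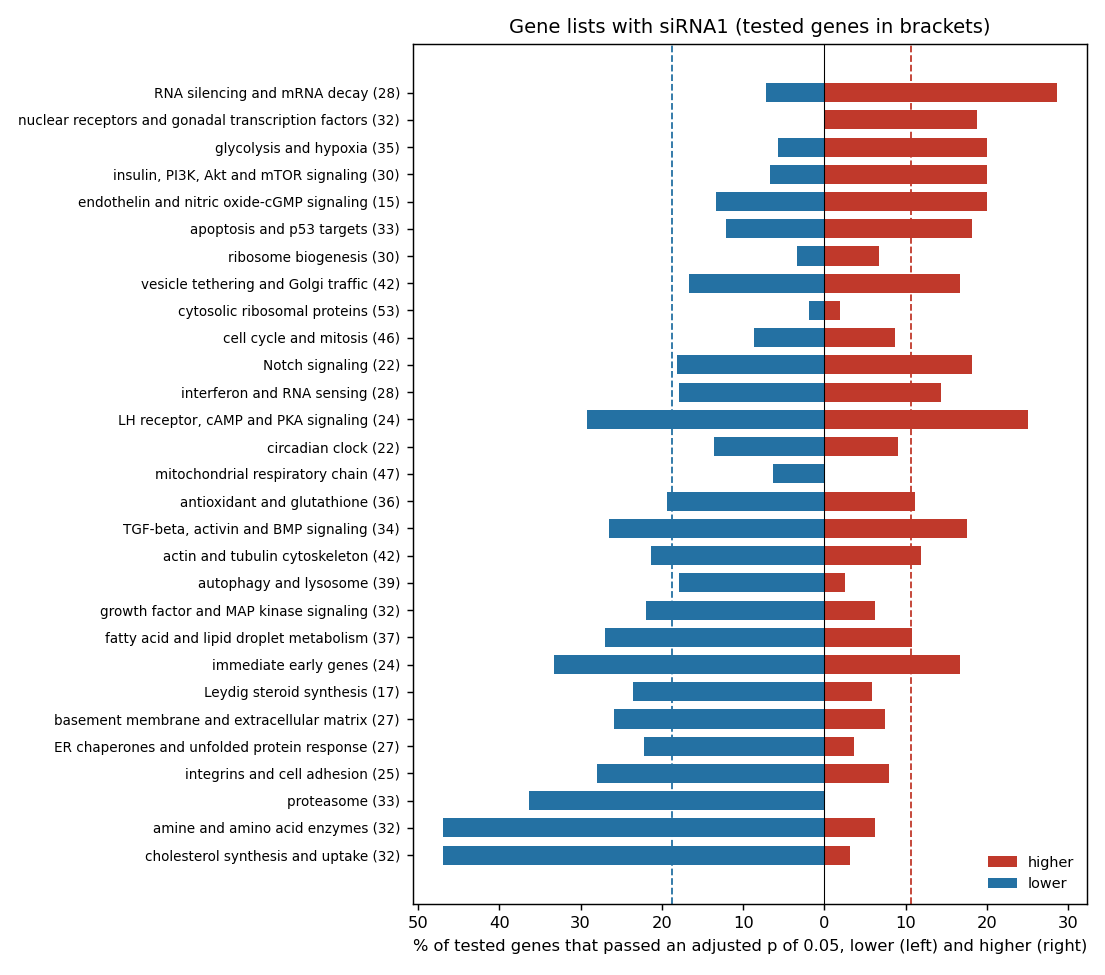
Share of the tested genes of each list that passed an adjusted p of 0.05 with siRNA1, lower to the left and higher to the right (x axis, %), for lists with at least 15 tested genes. Dashed lines mark the shares over all genes tested, 18.7% lower and 10.6% higher. Cholesterol synthesis and amine enzymes extend farthest to the left, and RNA silencing and mRNA decay farthest to the right.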

How the data were processed

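Total RNA of MLTCs (300 ng an array) was labeled with Cy3 and hybridized to Agilent 4x44K mouse arrays. The authors scanned the arrays and deposited, per the file headers, Feature Extraction 9.5.1.1 output with background-subtracted, not yet normalized spot intensity values. A deposited table of group averages was not used. Groups came from the sample titles.

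Control spots and outlier spots were left out, spots of a probe averaged, and log2 processed signals reduced by the 75th percentile of the array. Of 41174 probes, 24248 passed the filter on dim probes. limma 3.58.1 (R 4.3.3) was fitted to the 11 arrays in 3 groups, and p-values were adjusted by Benjamini-Hochberg over all tested probes. Probes were called at a 2-fold change with an adjusted p no higher than 0.05. The number of arrays limits the precision. The fit was tested on simulated data.

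Named genes are the 12 brightest increases and decreases, the 5 largest of each, called members of 37 gene lists, up to 6 that differed between the siRNAs, and genes the study measured; candidates had 1 symbol, were well above background on all 8 arrays, and had separated groups. Members and lists were chosen with earlier results of these data known, and other examples after their values were seen. Alternatives were normexp correction, other scalings, filters, blocks and tests, each array left out, and local background subtraction. Normexp used an offset of 50 and median signals, since the files hold no mean signal. Local background subtraction used the same offset and signals and was added after the normexp values were seen. Some genes are not reported here.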

Additional observations from a re-analysis of the deposited data

Results flagged for a closer look

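Of 152 groups of 4 arrays examined among the named genes, 6 held an array farther from the other 3 than Dixon's critical value allows. Chance gives about 1 in 20, so 6 groups are no more than chance gives. All 6 were siRNA1 groups. *Mamld1* was at 77.0% of the control mean on siRNA1 array 2 and at 44.1 to 48.1% on the others. *Gucy1a1* was at 322% on siRNA1 array 2 and at 177 to 194% on the others. On siRNA1 array 1, *Nr4a2* was lowest at 33.4%, against 51.3 to 53.5%, *Tnrc6a* highest at 364%, against 246 to 263%, and *Ednra* highest at 551%, against 520.2 to 525%. *Mcfd2* was at 48.4% on siRNA1 array 3 and at 50.3 to 50.6% on the others, a gap of little size.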

How the results depend on the processing

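The counts of 288 higher and 438 lower probes became 41 and 152 with normexp correction. They became 83 and 127 with the local background subtracted and the same offset of 50 added (chosen after seeing the data). By the adjusted p alone they were 2858 and 3695, and over genes in place of probes 98 and 263. Leaving out 1 array gave 279 to 316 higher and 410 to 464 lower. With normexp, the share of calls that were higher fell from 39.7% to 21.2%. Its fitted background mean was -663 to -475 on siRNA1 arrays 2 and 4 and siRNA2 array 2, against -28.3 to 2.94 on the others, and the log2 spread on those 3 arrays was 0.631 to 0.917 against 2.72 to 3.78. Normexp turned the log2 difference of *Mamld1* to 0.65, *Cidea* 0.11, *Col4a5* 0.28, *Ddx4* 0.71, *Lama2* 0.20, *Lamb3* 0.44, *Nr4a2* 0.73, *Prkar1b* 0.29, *Retreg1* 0.70, *Spred1* 0.24, *Tgfbr2* 0.39, and *Trem2* 0.41, and 27 other named genes lost the adjusted p with it. Local background subtraction turned *Hey1* to -0.093. Replicate numbers do not mark a shared culture in the labels, and same-numbered control and siRNA1 arrays deviated with correlations of 0.022 to 0.50. The replicate block gave 295 higher and 449 lower probes. No other setting ended a named call's adjusted p. For 34 higher and 28 lower probes, 1 group was not well above background on any array.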

Other observations

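Gene families read from their symbols were picked after their values were seen, so their counts are a description. Of 26 tested genes with symbols of axonemal dynein, dynein assembly, nexin-dynein, cilia and flagella associated, radial spoke, or tektin proteins, 9 were lower with siRNA1 (34.6%, against 18.7% of all genes) and 0 higher, with a median log2 difference of -0.23 and -0.132 with siRNA2. *Drc1* led them, and *Cfap300* was at -1.77 (siRNA2 -0.47), *Dnah2* at -1.73 (siRNA2 -0.36), and *Dnaaf2*, a dynein assembly factor, at -1.66 (siRNA2 0.16). A dimmer *Dnah2* probe gave -0.26. Mitochondrial ribosomal protein genes were lower in 20 of 77 (26.0%) and higher in 1, with a median of -0.158 and -0.123 with siRNA2.

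The subunits of the negative elongation factor did not move together. *Nelfb* rose, whereas *Nelfe*, which holds its RNA-binding domain, was at -1.37 with siRNA1 and -0.08 with siRNA2. All 3 *Cited* genes were higher with siRNA1, against 10.6% of all genes, but *Cited1* and *Cited4* had already been selected as bright increases. *Cited2* was at 0.93 (siRNA2 1.06), and with siRNA2 *Cited1* stood at -0.075 and *Cited4* at 0.75. Of 16 kallikrein genes, 7 were lower with siRNA1 (43.8%, against 18.7% of all genes), and *Klk1b9* was at -1.16 (siRNA2 0.28). The *Klk1b* genes are near-identical copies, so the gene behind each of their probes is uncertain.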
